A study of Mus musculus with 8 samples.

Results

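The carboxylesterase genes of mouse liver are described here by 10 genes given by name: Ces1b, Ces1c, Ces1d, Ces1e, Ces1f, Ces1g, Ces2a, Ces2e, Ces3a and Ces3b. They were 10 of 24972 genes listed and of 13301 genes tested, and all 10 passed the filter on low values (a normalized count of at least 10 in at least 4 libraries). Total RNA of the liver was sequenced from 18-week-old C57BL/6J mice. Of these, 4 libraries came from mice injected with AAV8-ALB-ATF3 (ATF3) and 4 from mice injected with the empty virus AAV8-ALB-Null (Null). Both viruses were given into a vein at 10 weeks of age and left for 8 weeks, so mice of both groups carried the same vector type, and ALB, part of each virus name, is read here as the promoter of the albumin gene, which is active in hepatocytes. The question posed by the study was which liver genes are regulated by ATF3, a transcription factor induced by cell stress. The design text states 8 mice per group and the labels give neither sex nor which mouse a library came from, so p-values measure only the spread between these libraries, which may be technical.

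Carboxylesterases are serine hydrolases that split ester, amide and thioester bonds. Most are held in the endoplasmic reticulum of hepatocytes, where they activate or clear ester drugs and hydrolyse stored triacylglycerol, whose fatty acids supply very low density lipoprotein (VLDL) assembly. The mouse carries several tandem copies of what are single genes in humans, so close relatives with different substrates sit side by side on the chromosome.

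The members differed in base sequence but shared the motif around the catalytic serine. Pairwise identity of the coding bases ran from 73.1% to 95.3% over the 17 pairs inside the Ces1, Ces2 or Ces3 subfamily, and from 61.3% to 63.7% over the 28 pairs between subfamilies. Over its whole coding sequence, each of the 10 members held 1 in-frame run of codons for glycine, any residue, serine, any residue and glycine, whose first base lay between coding bases 655 and 688. Windows of 60 coding bases around it are shown for 7 members, those that form the 3 pairs discussed below and Ces1d, to show how alike genes are whose transcripts moved differently. The sequences are from GENCODE vM21 transcripts on mm10, in coding direction, and capitals mark the 5 codons around the catalytic serine.
Ces1b: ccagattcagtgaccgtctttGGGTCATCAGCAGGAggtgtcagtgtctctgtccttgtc
Ces1c: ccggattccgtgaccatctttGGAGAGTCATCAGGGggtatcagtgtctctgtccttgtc
Ces1d: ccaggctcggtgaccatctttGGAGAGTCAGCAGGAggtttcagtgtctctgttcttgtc
Ces2a: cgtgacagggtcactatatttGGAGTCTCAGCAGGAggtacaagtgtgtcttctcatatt
Ces2e: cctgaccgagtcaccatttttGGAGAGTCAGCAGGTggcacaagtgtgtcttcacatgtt
Ces3a: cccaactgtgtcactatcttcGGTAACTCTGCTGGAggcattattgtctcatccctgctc
Ces3b: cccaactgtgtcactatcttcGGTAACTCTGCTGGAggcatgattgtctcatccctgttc
Ces3a and Ces3b differed at 2 of these 60 bases, Ces1b and Ces1c at 10, and Ces2a and Ces2e at 11. The windows of Ces2a (chr8:104737389-104737448) and Ces2e (chr8:104929794-104929853) lie on the plus strand within 1 exon. Those of Ces3a (chr8:105051565-105051734) and Ces3b (chr8:105086655-105086824) are on the same strand and cross an intron. On the minus strand, those of Ces1b (chr8:93069378-93071923), Ces1c (chr8:93120370-93123156) and Ces1d (chr8:93186116-93187799) also cross an intron.

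Atf3, the gene carried by the virus, had 5611, 5886, 7053 and 6722 normalized counts in the ATF3 libraries, against 24.2, 22.5, 24.5 and 20.3 in the Null libraries (log2 change 8.05 ± 0.11 SE, adjusted p = 5.6e-11, limma with Benjamini-Hochberg adjustment). Depth was roughly 17.2 to 48.5 M reads per library, estimated from the low values. All 10 hepatocyte markers were detected, of which 3 were higher and 3 lower (limma), against 11.4% and 9.82% of all genes tested. Their sum ranged from 3494189.6 to 4111534 in the ATF3 and from 2654792 to 3985100.1 in the Null libraries. Null 4 stood apart from the other libraries on the second principal component (16.7% of the variance). Null 1 held 119230 summed normalized counts of 5 exocrine pancreas genes, against 17.8 to 129 in the ATF3 and 102 to 1105 in the other Null libraries. Summed markers of Kupffer cells, stellate cells, cholangiocytes, lymphocytes, adipocytes and intestinal epithelium overlapped between the groups, with 1 of 6 cholangiocyte markers lower (limma), and Lep, Retn and Cdx2 among them stayed under 10 in all libraries. Those of liver endothelial cells ranged from 13497 to 14180.3 in the ATF3 and from 14273 to 16595 in the Null libraries, with 1 of 7 lower (limma). The part of these cells or of either library in the results was not tested beyond leaving libraries out.

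The carboxylesterases did not move as a block. With ATF3, Ces1d, Ces1g, Ces2e and Ces3a rose and Ces1b, Ces1e and Ces3b fell, while Ces1c, Ces1f and Ces2a did not pass the threshold of an adjusted p of 0.05 (limma on log2 of the normalized count plus 1). Of all genes tested, 21.2% passed, 11.4% as higher and 9.82% as lower. The groups did not overlap in 7 of the 10 members, against 26.3% of all genes tested. The median log2 change was 0.18 over the members and 0.0068 over all genes tested, and that of the members ranged from 0.021 without Null 3 to 0.39 without Null 4. On TPM as deposited, where the median of all genes lay 0.68 above 0 on the log2 scale, only Ces2e of the members passed and Ces1c, Ces1e and Ces3b had values above 0. Relative to that median, Ces1c stood at 0.042, Ces1e at -0.53 and Ces3b at -0.47. On TPM rescaled by the median of ratios, the members gave the same 4 higher and 3 lower counts. With Null 1 and Null 4 both left out, a choice made after seeing the data, 4 members were higher and 2 lower, with Ces1f called higher and the calls of Ces3a and Ces1e lost. RNA from bulk liver cannot tell fewer cells of a type from less RNA per cell.

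**Figure D1:**
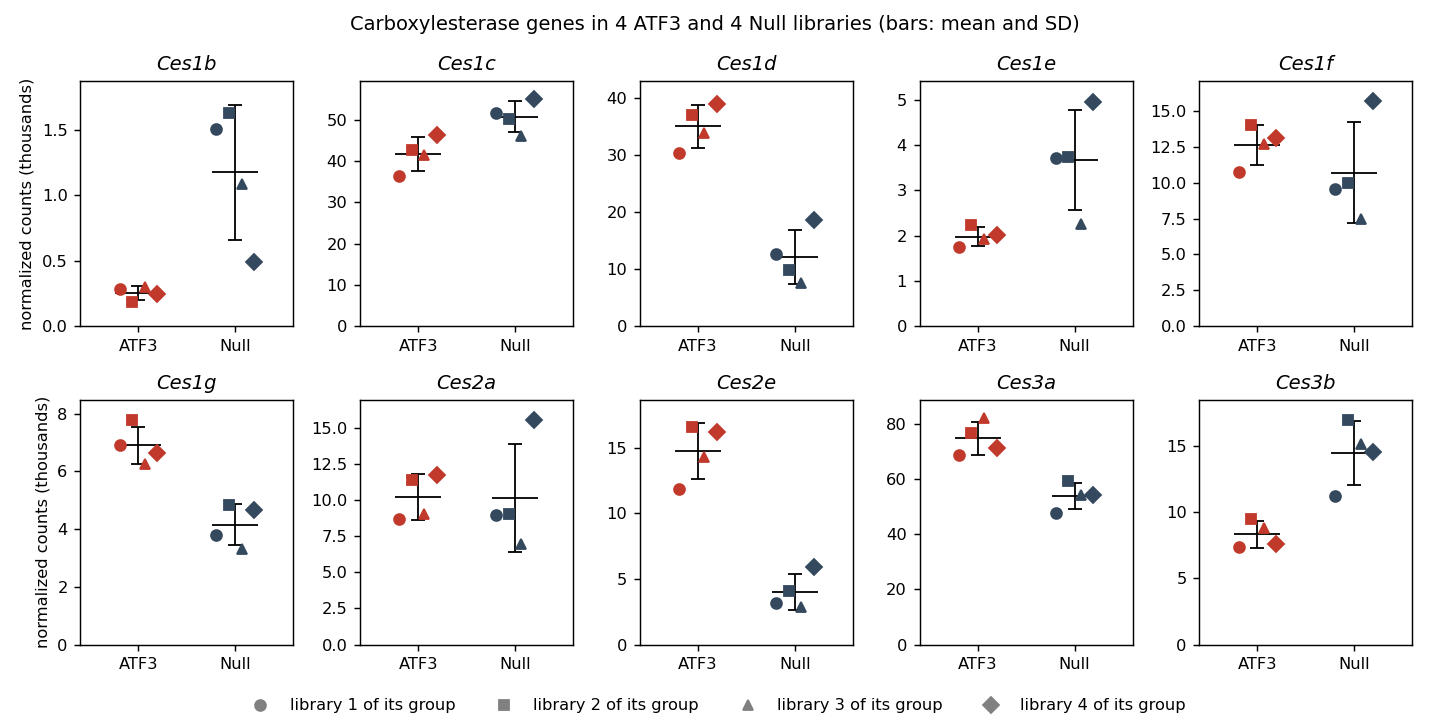
Normalized counts of the 10 carboxylesterase genes in 4 ATF3 and 4 Null libraries, 1 panel a gene, with points for libraries and bars for mean and SD. Ces1d, Ces1g, Ces2e and Ces3a lie higher in all ATF3 libraries and Ces1b, Ces1e and Ces3b lower. On TPM as deposited Ces1e and Ces3b come out above 0 but below the median of all genes (0.68).

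Several genes of hepatic lipid hydrolysis belong to the Ces1 group. Ces1d (chr8:93166068-93197838) encodes triacylglycerol hydrolase, which mobilises stored fat for VLDL assembly, and its transcript rose to about 2.89 times the Null mean. It had 30326, 37005, 33964.5 and 38996 normalized counts in the ATF3 libraries, against 12635, 9829.8, 7469 and 18532 in the Null libraries. Every ATF3 library lay well above the highest Null library, Null 4. The means were 35073 ± 3781 for ATF3 and 12116 ± 4769.8 for Null (SD, n = 4 each), a log2 change of 1.61 ± 0.24 SE (adjusted p = 0.000973, limma). Without Null 4 the log2 change was 1.84 ± 0.17.

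Ces1g (chr8:93302369-93337308), whose loss in mice leads to fatty liver and raised blood lipids, also rose, by less. It had 6899.8, 7788, 6255 and 6656 normalized counts in the ATF3 libraries, against 3811, 4846, 3328 and 4654 in the Null libraries. The groups were apart, with a narrow spread in each (log2 change 0.74 ± 0.13 SE, adjusted p = 0.00288, limma). Ces1f (chr8:93256236-93279747), another hydrolase of the hepatocyte endoplasmic reticulum, had 10724, 14021, 12716 and 13110.3 normalized counts in the ATF3 libraries, against 9592, 9999, 7471 and 15709 in the Null libraries. All ATF3 libraries exceeded 3 of the Null libraries and all lay below Null 4. The log2 change was 0.29 ± 0.20 SE with a 95% interval from -0.15 to 0.73 (adjusted p = 0.343, limma). It passed as higher without Null 4 (0.49, adjusted p = 0.0169, limma), with estimated library weights (0.48, adjusted p = 0.0176) and without both Null 1 and Null 4 (0.54, adjusted p = 0.0299), while without Null 3 the log2 change was 0.13 (adjusted p = 0.661, limma).

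The other Ces1 members were lower or without a call. Ces1c (chr8:93099015-93131283) encodes the esterase that the mouse liver secretes into plasma. It had 36310.1, 42831, 41583 and 46342 normalized counts in the ATF3 libraries, against 51658, 50228, 46222 and 55140.2 in the Null libraries. Only ATF3 4 reached the Null range, just above Null 3, but the difference missed the adjusted threshold (log2 change -0.29 ± 0.11 SE, 95% interval -0.54 to -0.031, adjusted p = 0.107, limma). Under quantile normalization its log2 change was 0.019 (adjusted p = 0.91, limma), so no direction is given for it. That setting was not particular to Ces1c, since it also moved the log2 change of Ces3a from 0.47 to 0.95.

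Ces1e (chr8:93201218-93229619) encodes egasyn, which holds beta-glucuronidase in the endoplasmic reticulum, and its transcript fell. It had 1756, 2234, 1916 and 2006 normalized counts in the ATF3 libraries, against 3709, 3744, 2258 and 4949 in the Null libraries. The groups came close to touching at ATF3 2 and Null 3. The log2 change was -0.84 ± 0.20 SE (adjusted p = 0.0147, limma) with all libraries and -0.68 (adjusted p = 0.014, limma) without Null 4. Its call was lost without both Null 1 and Null 4 (-0.56, adjusted p = 0.0593, limma). On TPM as deposited the value was 0.15, or -0.53 relative to the median of all genes. Gusb, the beta-glucuronidase gene, averaged 593 ± 105 normalized counts in ATF3 and 549 ± 202 in Null libraries (SD, n = 4 each), with no call (adjusted p = 0.677, limma).

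Ces1b (chr8:93056728-93080017) had the largest fall among the 10 genes with all libraries in the fit, to about 0.215 times the Null mean. It had 284, 185, 302 and 242 normalized counts in the ATF3 libraries, against 1509, 1630.3, 1089 and 487 in the Null libraries. The groups did not overlap, and Null 4 was the lowest Null library here, whereas it was the highest for Ces1c, Ces1d, Ces1e, Ces1f, Ces2a and Ces2e. The log2 change was -2.10 ± 0.34 SE (adjusted p = 0.00167, limma) with all libraries and -2.48 ± 0.19 without Null 4. Of the 31-base stretches of its transcript, 23.9% also occur in other genes, most of them in Ces1c, of whose stretches 30.1% occur elsewhere. How the counting divided reads between these genes is not given in the sources used here, so levels of both are uncertain to that extent.

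**Figure D2:**
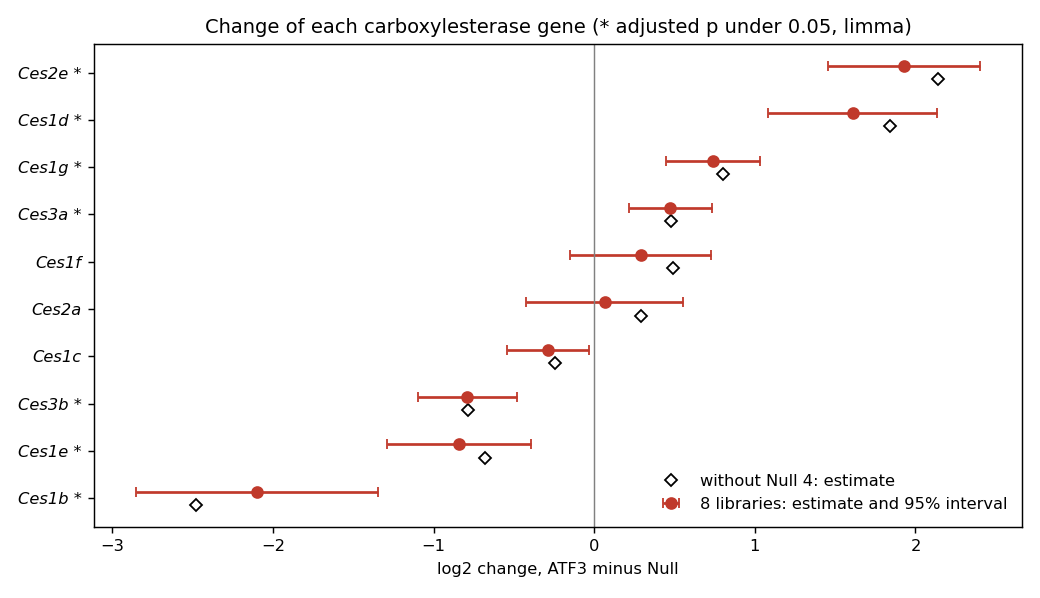
Log2 change of normalized counts (plus 1), ATF3 minus Null, for each of the 10 carboxylesterase genes: points and bars are limma estimates with 95% intervals from 8 libraries, open diamonds the estimates without Null 4. Ces2e (1.93) and Ces1d (1.61) head the plot and Ces1b (-2.10) ends it. On TPM as deposited, where the median of all genes was 0.68, Ces1c, Ces1e and Ces3b come out above 0.

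Of the 2 members of the Ces2 subfamily, Ces2e rose to about 3.69 times the Null mean and Ces2a did not pass the threshold. Ces2 enzymes prefer esters with a large alcohol and a small acyl group, and they also hydrolyse acylglycerols in liver and gut. Ces2e (chr8:104926260-104934672) had 11892, 16622, 14284 and 16203 normalized counts in the ATF3 libraries, against 3139, 4071, 2862 and 5939 in the Null libraries. The lowest ATF3 library exceeded the highest Null library by a wide gap. The means were 14750.1 ± 2161 for ATF3 and 4003 ± 1390.4 for Null (SD, n = 4 each), a log2 change of 1.93 ± 0.21 SE (adjusted p = 0.000155, limma), and Ces2e passed under every alternative tried, TPM as deposited included. Ces2a (chr8:104734003-104741634) had 8681, 11389, 9011 and 11744 normalized counts in the ATF3 libraries, against 8956, 8997, 6971 and 15527 in the Null libraries. The groups overlapped throughout, with Null 4 the highest of all 8. Its log2 change was 0.066 ± 0.22 SE (adjusted p = 0.864, limma), and the 95% interval of -0.42 to 0.55 does not reach the change of Ces2e. Of the stretches of Ces2a, 37.4% occur in other genes, mostly Gm7208, against 8.77% for Ces2e.

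The 2 Ces3 genes, 95.3% identical in coding bases and neighbours on the chromosome, moved in opposite directions. On TPM as deposited both had values above 0, where the median of all genes was 0.68. Relative to that median, Ces3a stood at 0.80 and Ces3b at -0.47. Ces3a (chr8:105048601-105058413), with the highest mean share of carboxylesterase transcripts, had 68683, 76469, 81948 and 71260.4 normalized counts in the ATF3 libraries, against 47583, 59064, 54203 and 54105 in the Null libraries. The groups were apart (log2 change 0.47 ± 0.12 SE, adjusted p = 0.0162, limma). The call was lost without ATF3 3 (0.43, adjusted p = 0.0615, limma), with no filter on low values (adjusted p = 0.0554) and without both Null 1 and Null 4 (0.40, adjusted p = 0.076). Ces3b (chr8:105083753-105093929) had 7377, 9461, 8814 and 7622 normalized counts in the ATF3 libraries, against 11252, 16983, 15122 and 14516 in the Null libraries. Every ATF3 library lay below the lowest Null library, Null 1. The log2 change was -0.79 ± 0.14 SE (adjusted p = 0.00272, limma), and -0.91 without Null 1. Of their 31-base stretches, 42.6% of Ces3a and 36.1% of Ces3b occur in the other gene, so the split of reads between them is uncertain. Their sum averaged 82909 ± 6682 normalized counts in ATF3 and 68207 ± 7088 in Null libraries (SD, n = 4 each). The groups all but met, at 76060 in ATF3 1 and 76047.7 in Null 2. Dividing shared reads between the genes cannot change this sum, but dropping such reads could, and which was done is not given.

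The composition of the family was then compared per transcript length, as each gene's share of the summed TPM of the 10 genes within a library. These shares are free of any scaling between libraries but are bound to each other, since all add up to the whole. In ATF3 libraries Ces3a led with 34.8% ± 2.46, ahead of Ces1c with 22.1% ± 0.997 and Ces1d with 17.1% ± 0.873 (SD, n = 4). In Null libraries Ces1c (33.4% ± 2.12) and Ces3a (31.2% ± 3.65) shared the lead and overlapped, and Ces1d held 7.19% ± 2.15. The groups did not overlap for Ces1c or Ces1d. Ces2e had 6.83% ± 0.533 in ATF3 and 2.26% ± 0.511 in Null libraries, and ranked 4 in ATF3 and 7 in Null libraries. Ces3b had 3.85% ± 0.328 in ATF3 and 8.34% ± 1.49 in Null libraries, and ranked 7 in ATF3 and 3 in Null libraries. The shares of both did not overlap between the groups.

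The remaining members held small shares. Ces1f had 6.39% ± 0.248 in ATF3 and 6.59% ± 1.40 in Null libraries, and Ces2a had 4.94% ± 0.528 in ATF3 and 5.96% ± 1.49 in Null libraries. Ces1g had 2.93% ± 0.335 in ATF3 and 2.17% ± 0.22 in Null libraries. Ces1e (0.908% ± 0.0474 in ATF3 and 2.06% ± 0.435 in Null) and Ces1b (0.125% ± 0.032 in ATF3 and 0.736% ± 0.337 in Null) came last in both groups. Among neighbours in the order, Ces2e and Ces1f overlapped in ATF3 libraries. In Null libraries overlaps joined Ces1c with Ces3a, the run of Ces3b, Ces1d, Ces1f and Ces2a, and the run of Ces2e, Ces1g and Ces1e.

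Ratios inside a library compare closely related genes free of any scaling. The TPM of Ces2e over that of Ces2a was 1.31, 1.40, 1.52 and 1.32 in the ATF3 libraries, against 0.336, 0.434, 0.393 and 0.367 in the Null libraries. The TPM of Ces3b over that of Ces3a was 0.107, 0.123, 0.107 and 0.106 in the ATF3 libraries, against 0.235, 0.285, 0.277 and 0.266 in the Null libraries. The TPM of Ces1d over that of Ces1c was 0.77, 0.797, 0.753 and 0.776 in the ATF3 libraries, against 0.226, 0.18, 0.149 and 0.31 in the Null libraries. None of these ratios overlapped between the groups. Null 4 lay between the other Null libraries for the Ces2 and Ces3 ratios and was the highest Null library for the Ces1 ratio. The 10 genes together made up 0.824% ± 0.0429 of all normalized counts in ATF3 and 0.602% ± 0.0514 in Null libraries (SD, n = 4 each), without overlap. These are descriptions, and no test was made over the members as a group.

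**Figure D3:**
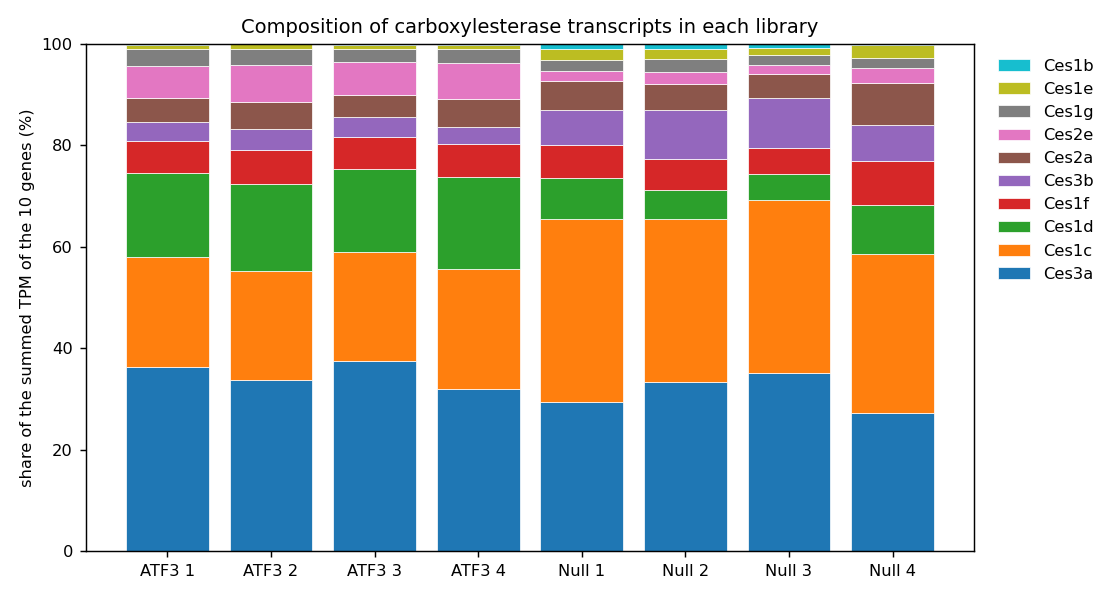
Share (%) of each of the 10 carboxylesterase genes in their summed TPM, 1 stacked bar for each of the 4 ATF3 and 4 Null libraries. The Ces1d segment averages 17.1% in ATF3 and 7.19% in Null libraries, and the Ces1c segment 22.1% in ATF3 and 33.4% in Null libraries.

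Of the other carboxylesterase genes, 9 were listed and 6 passed the filter, of which 3 rose and 1 fell. Over all genes tested, 11.4% rose and 9.82% fell. Ces2c, a close relative of human CES2 that hydrolyses triacylglycerol in mouse liver, had 8029, 9815, 8964 and 8676 normalized counts in the ATF3 libraries, against 1695, 2928, 2549 and 3277 in the Null libraries. This was a rise of the same order as that of Ces2e (log2 change 1.80 ± 0.18 SE, adjusted p = 8.1e-05, limma). Ces2d-ps, annotated as a pseudogene by its name, had 154 to 179 normalized counts in ATF3 and 38.6 to 75.5 in Null libraries (1.63 ± 0.20, adjusted p = 0.000342, limma). Ces2g rose slightly (0.35 ± 0.10, adjusted p = 0.0272, limma), but did not pass when ATF3 2, ATF3 4, Null 1 or Null 3 was left out (limma adjusted p between 0.0665 and 0.0872). Ces4a fell furthest of all carboxylesterase genes tested, with 26.3, 12.5, 24.1 and 13.3 normalized counts in the ATF3 libraries, against 149.9, 208, 345 and 153 in the Null libraries (-3.41 ± 0.32, adjusted p = 5.68e-05, limma). Ces2b (log2 -1.21, adjusted p = 0.125, limma) and Ces2h (log2 1.12, adjusted p = 0.0618, limma) did not pass, both at low values. Ces2b passed as lower with library weights (-1.72, adjusted p = 0.0298, limma) and without both Null 1 and Null 4 (-1.83, adjusted p = 0.0436, limma). Ces2h passed as higher without a trend in the variance (adjusted p = 0.0300, limma), on rescaled TPM (0.20, adjusted p = 0.0283, limma) and without Null 2 (1.34, adjusted p = 0.0435, limma). Without both Null 1 and Null 4 its log2 change was 0.55 (adjusted p = 0.302, limma). Ces1a and Ces2f stayed under 10 in every library, and Ces5a, a gene of the epididymis, was listed at 0 in all 8.

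All Ces genes listed lay on chromosome 8 in 2 clusters of the mm10 build. The first (chr8:93020214-93535830, minus strand) holds, of the genes listed, Ces1a to Ces1g in alphabetical order and Ces5a, while Ces1h of the annotation was not listed. The second (chr8:104734003-105150109, plus strand) holds the Ces2, Ces3 and Ces4a genes, and 11198 kb lie between them. On normalized counts, called genes that rose and fell alternated in the first cluster, in the order Ces1b (lower), Ces1d (higher), Ces1e (lower) and Ces1g (higher). Ces1c (-0.29) and Ces1f (0.29), between them in the order, had no call. In the second cluster those that rose (Ces2c, Ces2d-ps, Ces2e, Ces2g and Ces3a) all came before those that fell (Ces3b and Ces4a). Ces2a, Ces2b (-1.21) and Ces2h lie there without a call, Ces2b ahead of Ces2c. On TPM as deposited Ces1e and Ces3b lay above 0, and relative to the median of all genes at -0.53 and -0.47. Ces1d, which rose, lies 3379 bases from Ces1e, which fell, and Ces3a, which rose, lies 25339 bases from Ces3b, which fell. Ces2c, Ces2d-ps and Ces2e, which are adjacent, rose by 1.63 to 1.93 on the log2 scale. Of the 12 nearest tested genes outside the clusters, 3 on each side, 1 rose (Nudt21, a factor of mRNA 3' end processing, log2 change 0.46 ± 0.10 SE, adjusted p = 0.00922, limma). These genes lie 20.6 kb (Cbfb) to 1352 kb (Fto) from a cluster, with Nudt21 at 480 kb, so not all are close neighbours. The others had adjusted p of 0.287 or higher (limma), against 21.2% of all genes tested that passed in either direction. The annotation places Gm45909 over Ces1d on the same strand and Gm45724 over Ces3a on the opposite strand. Strand cannot separate the reads of Gm45909 and Ces1d. For Gm45724 and Ces3a it could, but the use of strand in counting is not stated.

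**Figure D4:**
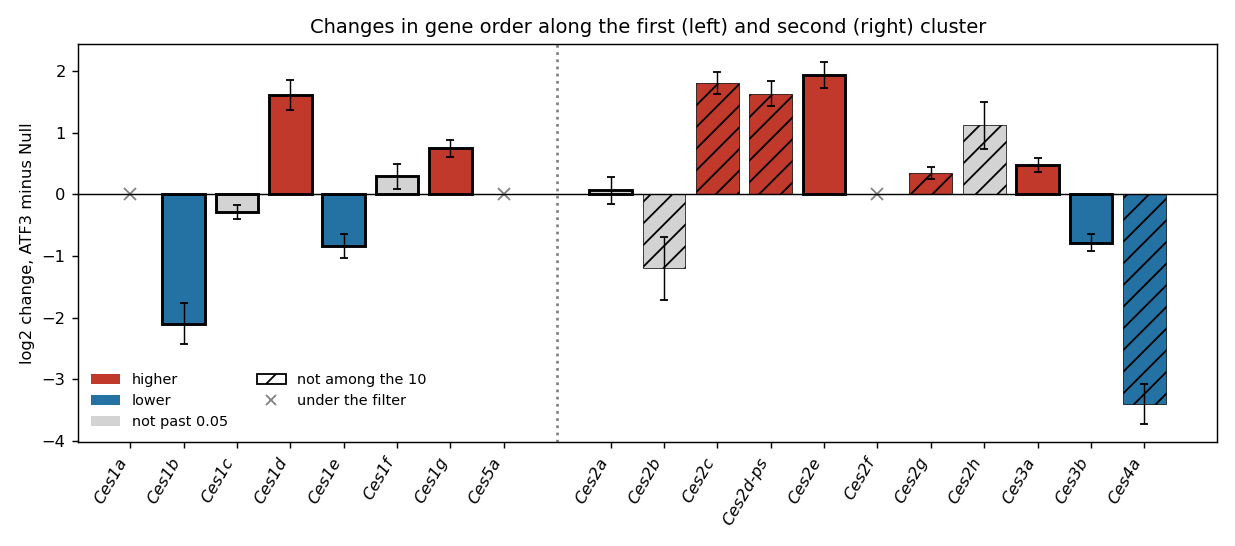
Log2 change (ATF3 minus Null, bars with SE) of the Ces genes in their order along the first and second cluster; hatched bars are genes other than the 10, grey bars did not pass an adjusted p of 0.05, and crosses mark genes under the filter. Called bars above and below 0 alternate in the first cluster once the uncalled Ces1c and Ces1f are passed over. In the second, called bars above 0 precede those below, and the adjacent Ces2c, Ces2d-ps and Ces2e reach 1.63 to 1.93. On TPM as deposited Ces1e and Ces3b come out above 0 but below the median of all genes (0.68).

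The pairs most alike in sequence differed in change, within the range of the other pairs. The most similar pair, Ces3a and Ces3b, differed by 1.26 in log2 change, Ces1b and Ces1c (90.9% identity) by 1.81, and Ces2a and Ces2e (83.3%) by 1.86. The next pair, Ces1d and Ces1g (81.6%), both rose and differed by 0.87. Over all pairs the difference ran from 0.050 (Ces1e and Ces3b) to 4.03 (Ces1b and Ces2e). Pairs share genes, so their points are not independent and no correlation is given.

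**Figure D5:**
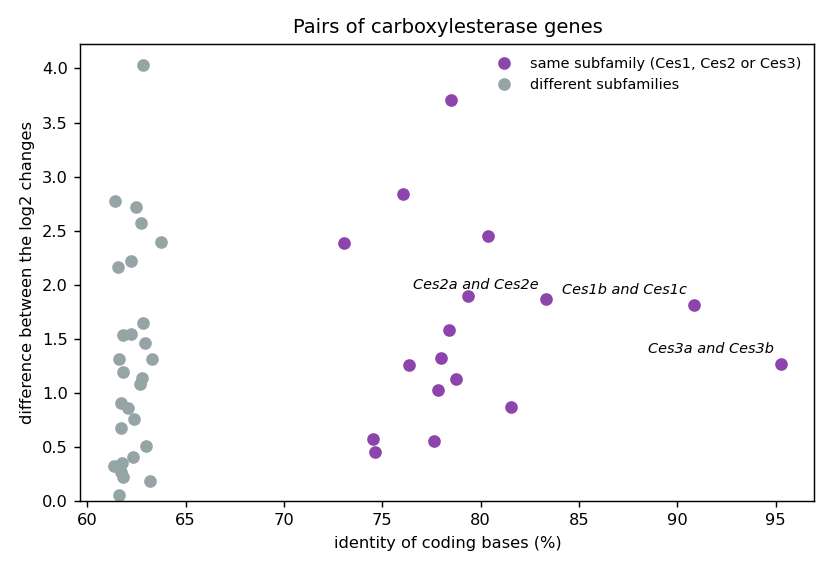
Difference between the log2 changes of 2 carboxylesterase genes against the identity (%) of their coding bases, 1 point a pair, 17 pairs within a subfamily and 28 between. The 3 most similar pairs, named in the plot, differ by 1.26 to 1.86, and all pairs by 0.050 to 4.03.

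Sequence around the gene starts was compared for 2 closely related pairs, chosen after their values were seen. Of the 10 members, 7 had an entry in the RefSeq table of 300-base windows, from 250 bases before to 50 bases after the gene start (GRCm38.p6, the assembly of mm10). The windows of Ces1b and Ces1c, whose log2 changes were -2.10 and -0.29, are shown because they are so alike. They lie at chr8:93079891-93080190 and chr8:93131234-93131533 on the minus strand, and capitals mark bases that differ or have no partner inside the alignment, while ends beyond it are in lower case.
Ces1b: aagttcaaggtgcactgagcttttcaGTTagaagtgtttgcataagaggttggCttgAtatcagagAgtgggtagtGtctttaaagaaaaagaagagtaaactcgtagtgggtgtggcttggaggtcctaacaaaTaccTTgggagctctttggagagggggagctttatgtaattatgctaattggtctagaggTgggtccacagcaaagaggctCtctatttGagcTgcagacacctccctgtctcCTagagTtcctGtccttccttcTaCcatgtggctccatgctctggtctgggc
Ces1c: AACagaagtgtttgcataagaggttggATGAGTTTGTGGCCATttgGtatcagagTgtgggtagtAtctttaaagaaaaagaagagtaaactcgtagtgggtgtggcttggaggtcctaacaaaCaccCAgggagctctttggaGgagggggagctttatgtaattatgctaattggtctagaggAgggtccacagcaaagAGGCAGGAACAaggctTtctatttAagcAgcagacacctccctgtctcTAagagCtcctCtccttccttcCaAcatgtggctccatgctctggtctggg
Of the 273 aligned bases, 92.7% were identical. Ces1b had another window (chr8:93079968-93080267), and the one that aligned better with Ces1c was used. The windows of Ces2a (chr8:104733753-104734052) and Ces2e (chr8:104926010-104926309), whose log2 changes were 0.066 and 1.93, lie on the plus strand and are marked in the same way.
Ces2a: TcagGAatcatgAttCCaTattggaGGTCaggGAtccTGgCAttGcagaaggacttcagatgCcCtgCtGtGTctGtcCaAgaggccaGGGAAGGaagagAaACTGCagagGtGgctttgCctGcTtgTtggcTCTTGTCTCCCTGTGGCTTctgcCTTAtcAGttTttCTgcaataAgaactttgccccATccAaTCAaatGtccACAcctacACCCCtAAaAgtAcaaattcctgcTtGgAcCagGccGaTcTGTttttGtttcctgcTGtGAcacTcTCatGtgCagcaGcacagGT
Ces2e: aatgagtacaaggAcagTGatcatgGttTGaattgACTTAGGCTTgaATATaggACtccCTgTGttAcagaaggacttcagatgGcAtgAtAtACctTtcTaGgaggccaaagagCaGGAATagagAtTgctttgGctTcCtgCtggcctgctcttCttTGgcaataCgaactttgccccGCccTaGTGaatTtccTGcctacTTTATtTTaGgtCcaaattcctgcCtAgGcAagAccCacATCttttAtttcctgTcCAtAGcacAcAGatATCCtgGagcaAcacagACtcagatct
Here 69.1% of the 265 aligned bases were identical. Motifs of ATF and AP-1 factors and of liver factors were searched on both strands in all 8 windows of the 7 members. The letters TGACGTCA (found in 1.79% of all 32851 windows), TGANTCA (7.81%), TGATGCAAT (0.192%), CAAAGTCCA (0.475%) and TGTTTAC (3.65%) were not in any of them. This says only that these letters are not in these windows.

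Variation of the members inside groups is given as a description. Over the 8 libraries, with group means removed, the correlation of log2 values between members ran from -0.78 (Ces1b with Ces2a) to 0.96 (Ces1f with Ces2a), with a median of 0.36 over 45 pairs and 34 above 0. The points share libraries and Null 4 in particular, where Ces1d, Ces1f, Ces2a and Ces2e lay 0.61 to 0.69 above and Ces1b 1.13 below the Null mean on the log2 scale. Without Null 4 the range was -0.41 (Ces1d with Ces3b) to 0.93 (Ces1e with Ces1f), with 35 of 45 above 0, and Ces1b with Ces2a stood at -0.12. Ces3a and Ces3b kept r = 0.92 with and without it, while their changes between groups were opposite. The tested genes outside the family most like Ces3a by this measure were Polr3k (0.97), Blmh (0.96), Jazf1 (0.96), Tmem237 (0.96) and Cpsf4l (0.96). They are the top of a search over all genes tested, 13301 with the Ces genes, on 8 libraries. Values picked in this way are high by selection, and shared control was not tested.

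Genes of related functions were read from the same fit, with log2 changes ± SE in parentheses. Of 29 other ester and acylglycerol hydrolases tested, 8 rose and 5 fell (median log2 change 0.096). Abhd2, a serine hydrolase with acylglycerol activity, averaged 7283 ± 714 normalized counts in ATF3 and 1503 ± 76.6 in Null libraries (SD, n = 4 each), a log2 change of 2.27 ± 0.09 SE. Cmbl, which activates ester prodrugs (1.28 ± 0.14), and Afmid, an enzyme of tryptophan breakdown (1.14 ± 0.16), rose. Abhd6, a monoacylglycerol lipase, fell (-0.87 ± 0.09), although its value on TPM as deposited was 0.071 (median of all genes 0.68). Adjusted p was 0.000634 or lower for these 4 genes (limma).

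Of 14 genes of VLDL assembly and fat mobilisation, 4 rose and 2 fell (median log2 change 0.27). Cidec, a protein of lipid droplets that favours fat storage, averaged 3628 ± 969 normalized counts in ATF3 and 56.6 ± 22.0 in Null libraries (SD, n = 4 each), a rise of 6.02 ± 0.28 on the log2 scale (limma adjusted p = 3.7e-07). Cpt1a, which admits fatty acids to mitochondria, rose (0.46 ± 0.09, adjusted p = 0.00622, limma). Dgat2, which makes triacylglycerol, fell (-0.86 ± 0.10, adjusted p = 0.000249, limma), as did Fabp1, a fatty acid carrier (-0.70 ± 0.17, adjusted p = 0.0165, limma), whose call was lost under quantile normalization (adjusted p = 0.469), on rescaled TPM (0.0502) and without both Null 1 and Null 4 (0.0813). On TPM as deposited these 2 stood at 0.14 and 0.31, where the median of all genes was 0.68. Apob, the structural protein of VLDL, averaged 540708 ± 30868 normalized counts in ATF3 and 573407 ± 100414 in Null libraries (SD, n = 4 each; adjusted p = 0.817, limma), and Mttp, which loads it with lipid, had a log2 change of 0.10 (adjusted p = 0.607, limma).

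Of 8 genes of partners and retention in the endoplasmic reticulum, 2 rose and 6 did not pass. P4hb, a protein disulfide isomerase (0.56 ± 0.14, adjusted p = 0.0171, limma), lost its call without ATF3 3, without ATF3 4 and without both Null 1 and Null 4 (adjusted p = 0.061, 0.0572 and 0.0726), and Hspa5, a chaperone (0.70 ± 0.20, adjusted p = 0.0301, limma), when ATF3 3, ATF3 4, Null 1 or Null 3 was left out (limma adjusted p between 0.0654 and 0.0947) and without both Null 1 and Null 4 (0.128). Kdelr2 (0.13) and Calr (0.19) did not pass. Of 22 regulators described for carboxylesterase genes, 3 rose and 5 fell (median log2 change -0.090). Srebf1, a regulator of lipid synthesis (1.30 ± 0.10), and Ppargc1a, a coactivator of fasting metabolism (0.77 ± 0.11), rose. Pparg (-1.04 ± 0.18) and Nr1i2, the pregnane X receptor that answers to drugs (-0.77 ± 0.13), fell. On TPM as deposited Nr1i2 stood at 0.19 (median of all genes 0.68). For these 4 genes adjusted p was 0.0026 or lower (limma). Hnf4a (-0.39, adjusted p = 0.0529, limma) did not pass.

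All 8 enzymes of drug metabolism listed with the carboxylesterases passed, 4 higher and 4 lower. Fmo1 (1.49 ± 0.16) and Fmo5 (0.85 ± 0.12), flavin monooxygenases, rose. Aox3, an aldehyde oxidase, averaged 6448 ± 969 normalized counts in ATF3 and 38101 ± 4978 in Null libraries (SD, n = 4 each), a log2 change of -2.57 ± 0.14. Ugt1a1, which conjugates bilirubin, fell as well (-0.94 ± 0.15), with 0.066 on TPM as deposited (median of all genes 0.68). For these 4 genes adjusted p was 0.0015 or lower (limma). Members of these lists were read against the 11.4% higher and 9.82% lower of all genes tested. The lists were chosen with earlier results of these data known, so their counts are descriptions only.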

How the data were processed

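Total RNA of 8 liver libraries was prepared with an Illumina stranded total RNA kit, per the labels. Bowtie2 and mm10 appear in the submitters' processing notes, while the tool that counted reads is not given in the sources used here. The authors deposited 2 tables. The first holds a signal as deposited, gene values scaled between libraries (normalized counts, by the table's name a DESeq scaling), which are not whole. The second holds TPM computed by the authors. It includes Mir6236, which took 0.308% (Null 4) to 89.4% (Null 1) of TPM, so TPM was used for shares within a library and as an alternative.

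Libraries were grouped by label and numbered in accession order. Genes with at least 10 normalized counts in at least 4 libraries (13301) were tested with limma 3.58.1 in R 4.3.3, two-sided, with a trend, on log2(value + 1), with Benjamini-Hochberg adjustment over all of them. Adding 1 understates changes of low genes. The procedure was tested on simulated data with 200 of 13301 genes changed, fewer than were called here. It recovered 25.37% of 1.5-fold, 70.15% of 2-fold and 93.94% of 4-fold changes, with 3 false calls among 129. Most 1.5-fold changes were thus missed in that setting. Depth is only roughly known, so no counting interval is given. The fixed design named a count model for whole counts, which the files do not hold.

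Members, gene lists and the rule for named genes were chosen with earlier results of these data known. That rule names the 10 members, every other Ces gene listed, Atf3, up to 4 genes of each list with the smallest p, 3 tested neighbours on each side of each cluster and 5 genes most like Ces3a; genes with provisional Gm symbols were passed over as neighbours. Apob, Mttp, Gusb and Hnf4a were named after their values were seen, as was the choice of pairs whose promoters are printed. Coordinates, coding sequences and shared 31-base stretches come from GENCODE vM21 (mm10), which may differ from the authors' annotation. Coding bases stood in for the planned protein comparison, and the pattern of the serine codons was widened after narrower ones missed members. Promoters are RefSeq's for GRCm38.p6. Pairs were aligned with Biopython 1.88, and tables and plots were made in Python 3.11.15 with pandas 2.3.3, numpy 2.4.6 and matplotlib 3.10.9. Markers of 8 other cell types were read as summed levels: Kupffer cell, liver endothelial, stellate, cholangiocyte, lymphocyte, adipocyte, intestinal epithelium and exocrine pancreas. Alternatives covered the value added, filters, scaling, TPM, variance models, library weights, a threshold of 0.01, leaving out each library and, chosen after seeing the data, leaving out Null 1 and Null 4 together.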

Additional observations from a re-analysis of the deposited data

How the results depend on the processing

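Of 200 recomputed changes of the members under the alternatives, 183 kept their direction and side of the threshold, 8 lost a call, 3 gained one and 6 reversed. For the shares of summed TPM, 100 of 100 recomputed differences moved by less than the spread between libraries. Most of these left out 1 library, which with 4 libraries a group cannot move a difference that far, so they test nothing. The rest took shares of summed normalized counts or of all Ces genes listed above 0. Reversed among the members were Ces1c (0.019 under quantile normalization and 0.72 on TPM as deposited), Ces1e (0.15) and Ces3b (0.21) on TPM as deposited, and Ces2a, which never passed (-0.0063 without ATF3 4 and -0.091 without Null 3; with each library left out it ranged from -0.091 to 0.29). Reversed on TPM as deposited were also Abhd6 (0.071), Dgat2 (0.14), Fabp1 (0.31), Nr1i2 (0.19) and Ugt1a1 (0.066). TPM as deposited gave 440 genes higher and 76 lower, against 1513 and 1306 on normalized counts, with 1 member higher, 0 lower and a member median of 1.17 (all genes 0.68). Its library totals are shared with Mir6236, at 89.4% of TPM in Null 1. Library weights gave 2271 genes higher, 2130 lower and a member median of 0.37. A threshold of 0.01 left 814 higher and 671 lower. With each library left out in turn, genes higher ranged from 1040 (without ATF3 3) to 1965 (without Null 4), genes lower from 851 (without ATF3 3) to 1812 (without Null 4), members higher from 3 to 5, members lower stayed at 3, and the member median ranged from 0.021 (without Null 3) to 0.39 (without Null 4). Without both Null 1 and Null 4 the member median was 0.37. For these moves the cause was not tested. No paired analysis was possible because the numbers within groups follow accession order and pair no libraries. Ces2b, Ces2h and the 3 Ces genes under the filter had low values, and the part of depth in this was not tested. The sharing of sequence limits Ces1b, Ces1c, Ces2a, Ces3a and Ces3b, whose reads can be divided between genes in ways not given here. With 4 libraries a group, a change as small as that of Ces1c was not separated from the spread.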
